A study of Mus musculus with 4 samples.

Results

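The S100 genes encode small calcium-binding proteins, and 9 of them were followed here in the medial prefrontal cortex (mPFC) of mice with and without chronic unpredictable mild stress (CUMS). The members were S100a1, S100a5, S100a6, S100a8, S100a9, S100a10, S100a13, S100a16 and S100b. They were taken by gene symbol from a table of 17778 genes, and all 9 were found in it. The study sequenced mRNA from 2 control libraries and 2 CUMS libraries of mPFC tissue from both hemispheres. The mice were juvenile males, named as C57BL/6 in the labels and as C57BL/6J in the study's methods, and entered at about weaning age. CUMS mice lived for weeks under stressors that varied unpredictably from day to day, among them restraint, a tilted or damp cage, white noise, strobe light and a disturbed day-night cycle, together with continuous social isolation. Controls lived without these stressors, and the sources name no allele and no drug treatment for either group. Per the study's methods, mice of both groups were anesthetized with isoflurane before the tissue was taken. As the CUMS group was made up of stressed mice that then showed depression-like behavior, it represents the affected animals and not every stressed animal. Whether each library held RNA of a single mouse is not given in the sources used here.

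S100 proteins fold as pairs of EF-hands, loops that hold a calcium ion, and most of them work as dimers. Calcium binding opens a surface that grips target proteins inside the cell. Some members are also secreted and act on receptors such as RAGE and TLR4. In the brain S100b is the classical astrocyte product, S100a10 (p11) is known for its binding to serotonin receptors and its link with depression-like behavior in mice, and S100a8 with S100a9 form calprotectin, the main cytosolic protein of neutrophils. S100a5 is a gene of olfactory sensory neurons.

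The deposited values were 1 mean per gene and group, in RPKM, the reads on a gene divided by its length in kilobases and by the size of the library. No value per library was analysed, hence the spread between replicates is unknown and no p-value could be given. The number of sequenced fragments behind each mean was estimated from the low values of the table and came to 8210181 for each control library and 8298755 for each CUMS library. This is well under the number of gene-mapped read pairs that the study's read totals and mapping rates imply, and the reason was not tested. All intervals in the text are 95% intervals from these fragments. They cover counting error only and not the differences between mice or dissections. Markers of the tissue were present, as 6 of 6 genes of neocortical projection neurons lay between 9.45 and 635 RPKM in control, and these were higher in CUMS in 6 of 6 genes with a median log2 ratio of 0.32. In such bulk tissue, fewer cells of a type and less RNA per cell cannot be told apart.

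The S100 genes split into members with a high level that was close in both groups and members with a low level that differed. The 6 members S100a1, S100a16, S100b, S100a10, S100a13 and S100a6 stood at 18.3 RPKM or above in control, and the largest difference among them was 1.2-fold. S100a8 and S100a9 were higher in CUMS, S100a5 was lower, and each of these 3 rested on few fragments. As the groups differed most in these 3 genes, their promoters are shown first. RefSeq (GRCm38.p6, which has the coordinates of the mm10 build used by the authors) gives a promoter window of 250 bases before and 50 bases after the transcript start for 8 of the 9 members, of which 3 are printed 5′ to 3′ on the strand of the gene. Capitals mark matches, on either strand, to TATAAA (the TATA box), CAGCTG (an E-box) and CCAAT (read as ATTGG on the other strand).
S100a8, chr3:90668821-90669120, plus strand: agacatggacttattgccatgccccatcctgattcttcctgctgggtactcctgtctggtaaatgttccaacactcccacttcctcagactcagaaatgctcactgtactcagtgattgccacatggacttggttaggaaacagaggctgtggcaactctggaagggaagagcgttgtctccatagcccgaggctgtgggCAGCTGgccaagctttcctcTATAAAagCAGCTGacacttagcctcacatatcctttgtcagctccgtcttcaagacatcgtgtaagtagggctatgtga
S100a9, chr3:90695672-90695971, minus strand: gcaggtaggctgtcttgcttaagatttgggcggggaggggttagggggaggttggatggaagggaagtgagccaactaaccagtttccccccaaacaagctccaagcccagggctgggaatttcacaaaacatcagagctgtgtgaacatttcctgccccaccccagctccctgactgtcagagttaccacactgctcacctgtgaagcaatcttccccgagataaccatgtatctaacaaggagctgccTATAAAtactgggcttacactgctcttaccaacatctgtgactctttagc
S100a5, chr3:90608272-90608571, plus strand: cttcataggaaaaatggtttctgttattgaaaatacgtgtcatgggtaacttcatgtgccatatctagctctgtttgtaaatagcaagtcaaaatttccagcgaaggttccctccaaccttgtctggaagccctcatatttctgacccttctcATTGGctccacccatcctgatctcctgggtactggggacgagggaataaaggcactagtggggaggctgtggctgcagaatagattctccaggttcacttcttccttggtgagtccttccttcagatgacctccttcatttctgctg

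Both calprotectin promoters held TATAAA, which occurred in 13.6% of the 32851 promoter windows of the reference. In S100a8 it began 30 bases before the annotated start, with CAGCTG on both sides of it, an E-box found in 16.3% of windows. In S100a9 it began at base 251 of the window, which is the annotated first base of the transcript. The S100a5 window had no TATAAA and held 1 CCAAT match, 97 bases before the start, a motif present in 37.4% of windows. The annotated span of S100a5 begins upstream of this window. Among the members, TATAAA was found in no printed or unprinted window other than those of S100a8 and S100a9. TTGCNNNAA (C/EBP, 9.56% of windows), TGANTCA (AP-1, 7.81%) and CCCNNGGG (EBF, 13.7%) were also searched on both strands, and none of them matched in the 3 printed windows. No match overlapped another. A match is a string of letters and not a measured binding site.

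S100a8 and S100a9 encode the 2 subunits of calprotectin, which binds zinc and manganese as well as calcium and is released by activated neutrophils. S100a8 (gene 20201, chromosome 3, 90669071 to 90670034) had a control mean of 0.375 RPKM, from 2 fragments, and a CUMS mean of 4.47 RPKM, from 24 fragments. This is a ratio of 11.9 with a counting interval of 2.95 to 104. S100a9 (gene 20202, chromosome 3, 90692630 to 90695721) was 0.15 RPKM in control, from 1 fragment, and 1.88 RPKM in CUMS, from 13 fragments, a ratio of 12.5 with an interval of 1.93 to 547. Both intervals lay above equal expression, which was also the case, on either side of it, for 30.8% of the 14243 genes compared, which are those of at least 0.5 RPKM in 1 group or both and over 3 fragments in 1 group or both. The subunits kept nearly the same proportion to each other, since the S100a8 level was 2.5 times the S100a9 level in control and 2.38 times in CUMS, although the control proportion rests on 3 fragments in all. In CUMS the S100a8 interval of 2.83 to 6.58 RPKM and the S100a9 interval of 0.986 to 3.17 RPKM overlapped. Neither gene overlaps another annotated gene, and they lie 22.6 kb apart.

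Genes of neutrophils differed in part as calprotectin did. Of 18 neutrophil genes 16 were in the table, and 9 of the 16 stood at or under 3 fragments in control, with 4 listed at 0. Of those 9, 5 were above 3 fragments in CUMS. Genes picked for so low a control count could hardly be lower in CUMS. The share over all genes with such a control count was not computed, so the 5 cannot be judged against it. The granule genes Camp, Ngp and Ltf, singled out after their values were seen, encode antimicrobial proteins made while neutrophils mature in the bone marrow. Camp had 0 fragments in control and 8 in CUMS, at least 2.69-fold higher against 3 fragments, with a log2 interval that starts at 0.76. Ngp had 1 and 18 fragments, a log2 ratio of 4.04 with an interval of 1.49 to 9.54, and Ltf likewise had 1 and 18 fragments. The pattern did not extend to the more abundant genes of the list. Pglyrp1, a peptidoglycan-binding protein of granules, was 9.66 RPKM in control against 6.42 RPKM in CUMS. Itgam, an integrin that microglia carry as well, was 7.5 and 8.81 RPKM, and the receptor gene Csf3r was 1.82 and 2.02 RPKM. Of the 7 genes that could be compared, 5 were higher and 2 lower in CUMS, 2 were more than 1.5-fold higher and 1 more than 1.5-fold lower, with a median log2 ratio of 0.22. The 2 higher genes, Camp and Ngp, reached 0.5 RPKM only in CUMS and so had to differ to be compared, and 17.6% of all genes between 0.5 and 5 RPKM differed by more than 1.5-fold. The summed level of the list was 22.8 RPKM in control against 24.2 RPKM in CUMS.

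Blood genes differed as well. Of 9 genes of red blood cells, 7 could be compared, 6 were higher in CUMS and 5 were more than 1.5-fold higher, against 2.71% of all genes compared, with a median log2 ratio of 0.70. Of these 5, 1 (Hbb-b2, with 1 and 5 fragments) reached 0.5 RPKM only in CUMS. The globin genes Hba-a1 (125 and 203 RPKM) and Hba-a2 (63.0 and 126 RPKM) were also among the 5 genes more than 1.5-fold higher. Summed, these genes gave 437 RPKM in control against 652 RPKM in CUMS. For microglia, the resident immune cells of the brain, 6 of 12 genes were higher and 6 lower, none by more than 1.5-fold, and C1qa and Csf1r had log2 ratios of 0.03 and -0.01. The part of blood or of neutrophils in the S100a8 and S100a9 values was not tested.

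**Figure D1:**
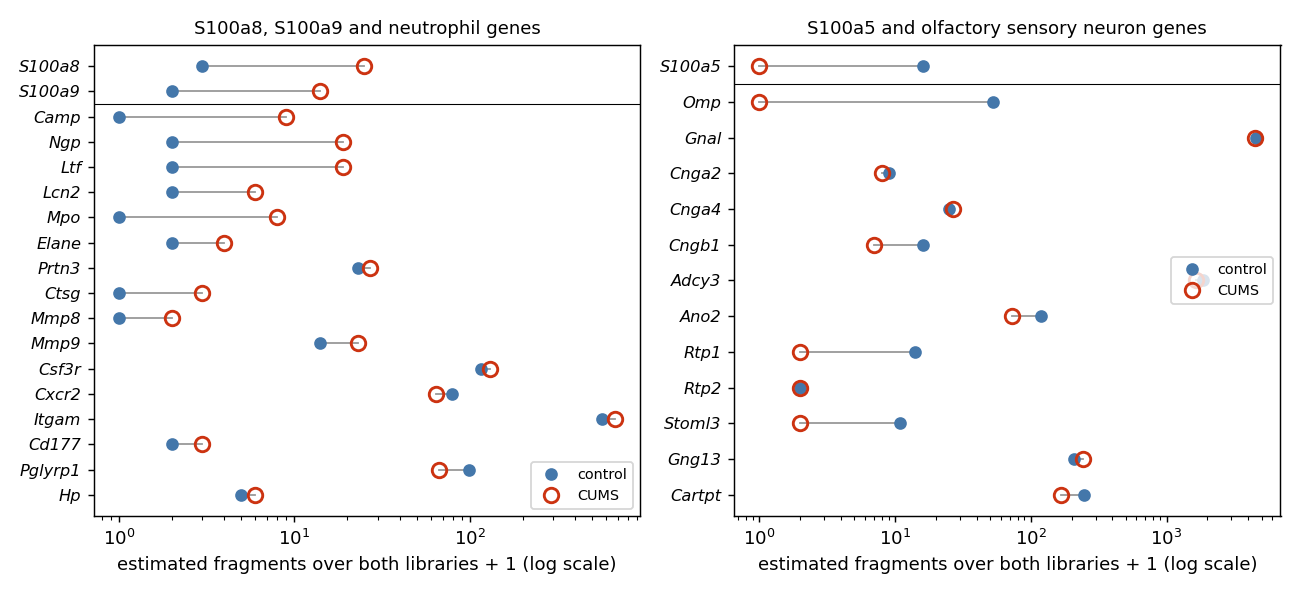
Estimated fragments over both libraries of a group plus 1 (horizontal log axis) for control (filled) and CUMS (open), with S100a8 and S100a9 above the neutrophil genes on the left and S100a5 above the olfactory sensory neuron genes on the right. S100a8 had 2 fragments in control and 24 in CUMS and Ngp 1 and 18, whereas Csf3r and Prtn3 lay close together in the groups, and S100a5 and Omp had 15 and 52 fragments in control and 0 in CUMS.

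S100a5 is expressed by olfactory sensory neurons, whose axons end in the olfactory bulb in front of the frontal cortex. S100a5 (gene 20199, chromosome 3, 90606480 to 90611784) had a control mean of 2.5 RPKM, from 15 fragments, and was listed at 0.01 in CUMS, the value that stands for 0 in the table. With CUMS raised to 3 fragments over the group (0.492 RPKM), S100a5 was at least 5.09-fold lower in CUMS. The counting interval, which also covers the error of the control count, ended nearer to equality, at a log2 ratio of -1.86. The upper limit of its CUMS level was 0.606 RPKM, under the lower limit of 1.39 RPKM in control. The gene stands between S100a4, 0.434 kb upstream, and S100a6, 1.11 kb downstream, and overlaps neither. S100a4 was 2.72 RPKM in control against 2.29 RPKM in CUMS, from 20 and 17 fragments, although its control level was similar to that of S100a5.

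Olfactory genes differed beside S100a5. Omp, the olfactory marker protein gene of mature sensory neurons, had 52 fragments in control and 0 in CUMS, at least 17.5-fold lower against 3 fragments, with a log2 interval that ends at -3.78. Omp was named after its values were seen, and it lies within Capn5, which was 20.4 RPKM in control against 24.5 RPKM in CUMS. The membrane protein gene Stoml3 and the receptor transporter gene Rtp1, chosen in the same way, had 10 and 13 fragments in control and 1 each in CUMS. Of the 12 olfactory sensory neuron genes 8 could be compared, of which 2 were higher, 6 were lower and 3 were more than 1.5-fold lower, with a median log2 ratio of -0.38. Of these 3, Omp and Stoml3 reached 0.5 RPKM only in control and so had to differ to be compared, in a range of levels where 17.6% of all genes differed by more than 1.5-fold. The most abundant genes of this list are also used by cortical or striatal neurons. Gnal, the G protein alpha subunit of odor receptors, was 52.5 and 51.2 RPKM, Gng13 was 33.7 and 38.8 RPKM, and the adenylyl cyclase gene Adcy3 was 25.2 and 22.2 RPKM. The list summed to 136 RPKM in control against 127 RPKM in CUMS.

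Genes listed for the olfactory bulb were lower in CUMS in 9 of 9 compared genes, 7 of them by more than 1.5-fold, against 4.35% of all genes compared, with a median log2 ratio of -1.0. Of these 7, 2 reached 0.5 RPKM only in control. Their sum was 82.3 RPKM in control against 42.3 RPKM in CUMS. Calb2, which encodes the calcium buffer calretinin, was 36.1 and 19.1 RPKM, Doc2g was 12.9 and 4.05 RPKM, and the photoreceptor and mitral cell cadherin gene Cdhr1 was 8.27 and 5.6 RPKM. Calb2 thus held the largest part of the sum in both groups, and it also stands in a list of calcium buffers followed here. How far cortical cells express the listed genes was not tested, so the sum is not a measure of bulb tissue. The part of olfactory tissue in the S100a5 value was not tested.

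The 6 abundant members carried nearly all of the RPKM of the 9, and none of them differed by more than 1.5-fold. S100a1, S100a16 and S100b together held 68.7% of the summed RPKM of the 9 members in control and 67.4% in CUMS. The sum itself was 224 RPKM in control against 226 RPKM in CUMS. In control, S100a1 was the highest, above 93.1% of all genes, and S100a6, the lowest of the 6, was above 75.4% of all genes.

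S100b encodes the S100 protein of astrocytes, which some oligodendrocytes also make and which, once secreted, acts on neurons through RAGE. S100b (gene 20203, chromosome 10, 76253836 to 76261319) was 43.6 RPKM in control, from 1152 fragments, and 43.7 RPKM in CUMS, from 1168 fragments. The log2 ratio was 0.00 with an interval of -0.11 to 0.12, and it was the narrowest interval of the family. Most other glial genes followed here were lower in CUMS. Of 15 astrocyte genes 11 were lower and 4 higher in CUMS, and the median log2 ratio was -0.22. More than 1.5-fold lower was 1 of the 15, beside 4.35% of all genes compared. Glul, the glutamine synthetase gene, was 684 and 587 RPKM, the glycolytic gene Aldoc was 491 and 438 RPKM, and the sodium pump subunit gene Atp1b2 was 188 and 152 RPKM. Of 14 oligodendrocyte genes 13 were lower, with a median log2 ratio of -0.45, as seen in the myelin genes Mbp (1167 and 774 RPKM) and Cnp (158 and 127 RPKM). More than 1.5-fold lower were 4 of the 14, beside the same 4.35%. All genes of both glial lists stood above 5 RPKM in control. At 5 RPKM or above, 1.6% of all genes differed by more than 1.5-fold in either direction. The summed astrocyte level was 2118 RPKM in control against 1875 RPKM in CUMS, and the summed oligodendrocyte level was 2086 and 1434 RPKM. Their part in the S100b value was not tested.

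S100a10 encodes p11, which forms a tetramer with annexin A2 and carries serotonin receptors and ion channels to the cell surface. S100a10 (gene 20194, chromosome 3, 93555117 to 93564645) was 30.2 RPKM in control, from 290 fragments, and 26.5 RPKM in CUMS, from 258 fragments. The log2 ratio of -0.19 had an interval of -0.43 to 0.06, which includes equal expression. Among its partners, 3 of 10 compared genes were higher and 7 lower in CUMS, with a median of -0.09. The counting interval lay below 0 for 4 of the 10 and above 0 for 0 of them. Over all genes compared, 30.8% had an interval that excluded 0 on either side. More than 1.5-fold lower was 1 of the 10, beside 4.35% of all genes compared. That gene was the serotonin receptor gene Htr4, with 0.775 RPKM in control against 0.51 RPKM in CUMS, and its interval of -1.21 to 0.02 on the log2 scale includes 0. Htr1b, the serotonin receptor known to bind p11, was 4.26 and 2.84 RPKM, a fold of exactly 1.5 that does not pass the limit, with a log2 interval of -1.12 to -0.06. Anxa2 was 6.29 RPKM in control against 6.45 RPKM in CUMS, a log2 ratio of 0.04. The most abundant partners were the ion channel gene Asic1 (29.5 and 26.9 RPKM), the plasminogen activator gene Plat (16.9 and 12.8 RPKM) and the glutamate receptor gene Grm5 (12.6 and 12.5 RPKM). Htr1b and Anxa2 fall outside the rule for naming genes and were added after their values were seen.

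S100a1 is best known from heart muscle, where it acts on the calcium pump and the ryanodine receptor of the sarcoplasmic reticulum, and it is found in neurons too. S100a1 (gene 20193, chromosome 3, 90511034 to 90514330) was 64.7 RPKM in control, from 584 fragments, and 59.5 RPKM in CUMS, from 543 fragments, with a log2 ratio of -0.12 (interval -0.29 to 0.05). S100a13 (gene 20196, chromosome 3, 90514233 to 90524581), which helps FGF1 and interleukin-1 alpha leave the cell, was 18.6 RPKM in control against 18.7 RPKM in CUMS, from 204 and 207 fragments, with a log2 ratio of 0.01 (-0.28 to 0.29). The intervals of both genes include equal expression. These genes point away from each other and share 98 bases at their starts. The strand setting of the counting is not given in the sources used here, and without strand, reads from the shared bases cannot be told apart.

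S100a16 (gene 67860, chromosome 3, 90537254 to 90543151), a widely expressed member with a degenerate first EF-hand, was 45.4 RPKM in control against 49.1 RPKM in CUMS, from 765 and 835 fragments. Its log2 ratio was 0.11 (-0.03 to 0.25). S100a6 (gene 20200, chromosome 3, 90612894 to 90614414), or calcyclin, is induced in growing cells and is found in astrocytes and in the meninges. S100a6 was 18.3 RPKM in control against 21.9 RPKM in CUMS, from 197 and 238 fragments. The log2 ratio of 0.26 was the largest among the 6 abundant members, and its interval of -0.02 to 0.54 just included 0. Genes of meningeal fibroblasts showed no common direction, as 5 of 10 were higher and 5 lower, 2 of them by more than 1.5-fold upward and 1 downward, with a median of 0.02. The genes past 1.5-fold were all under 5 RPKM, where 17.6% of all genes of at least 0.5 RPKM differed that much. Of the fibroblast genes, Ptgds was 504 and 578 RPKM, Igfbp2 was 30.1 and 25.3 RPKM, and Igf2 was 13.3 and 13.02 RPKM.

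**Figure D2:**
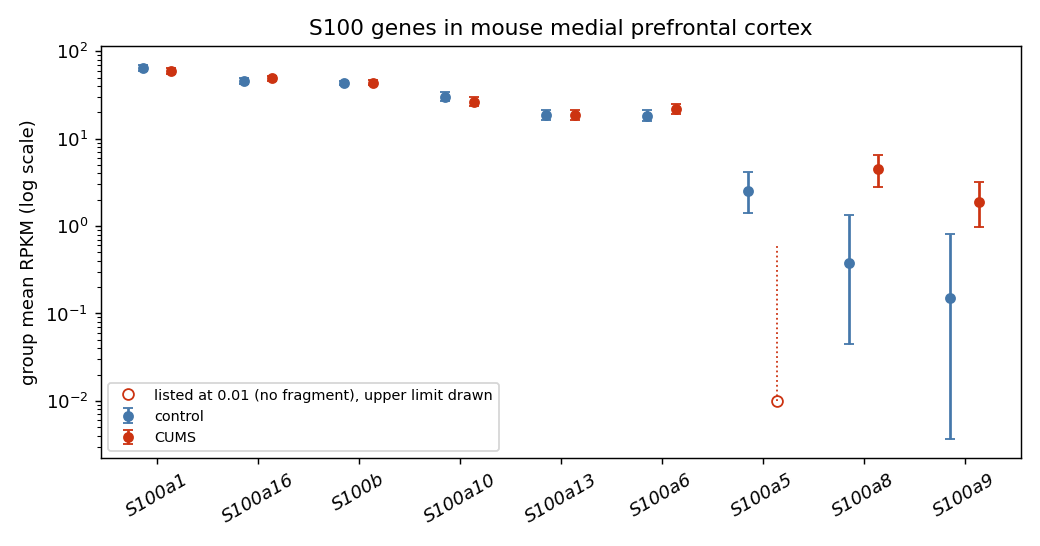
Group mean RPKM (vertical log axis) of the 9 S100 genes in control (blue) and CUMS (red), ordered by the control level, with 95% counting intervals as bars. The 6 genes on the left lie between 18.3 and 64.7 RPKM, S100a5 is listed at 0.01 in CUMS (open circle, with the upper limit of 0.606 RPKM dotted), and S100a8 and S100a9 lie higher in CUMS.

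The order of the levels was much the same in both groups at the upper end. S100a1 was followed by S100a16 and S100b, whose intervals overlapped, and then by S100a10 in each group. S100a13 and S100a6 overlapped in control, with S100a13 first, and overlapped in CUMS in the opposite order. In CUMS the S100a6 interval also overlapped that of S100a10. At the lower end S100a5 was seventh and above S100a8 and S100a9 in control, with an interval that did not reach theirs, and S100a8 and S100a9 overlapped. In CUMS S100a8 and S100a9 were above S100a5, again without overlap between S100a9 and S100a5.

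A fold above 1.5 was counted among genes that reached 0.5 RPKM in control or in CUMS, with any mean at or under 3 fragments raised to 3. All 9 members reached 0.5 RPKM, but S100a5 did so only through control, and S100a8 and S100a9 only through CUMS, hence these 3 had to differ to enter. Of the 9 members 2 were more than 1.5-fold higher in CUMS, against 2.71% of all 14243 genes compared, and 1 was more than 1.5-fold lower, against 4.35%. A fold of this size was common in weakly expressed genes, as 17.6% of genes with a larger mean between 0.5 and 5 RPKM had it in one direction or the other, and in 1.6% of genes with at least 5 RPKM. The 3 members past 1.5-fold were all in the first class and the 6 others all in the second, where 0 passed. With the raised means, the log2 ratios were 3.0 for S100a8, 2.12 for S100a9 and -2.35 for S100a5. The median log2 ratio of the 9 members was 0.01, beside -0.015 over all genes compared.

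**Figure D3:**
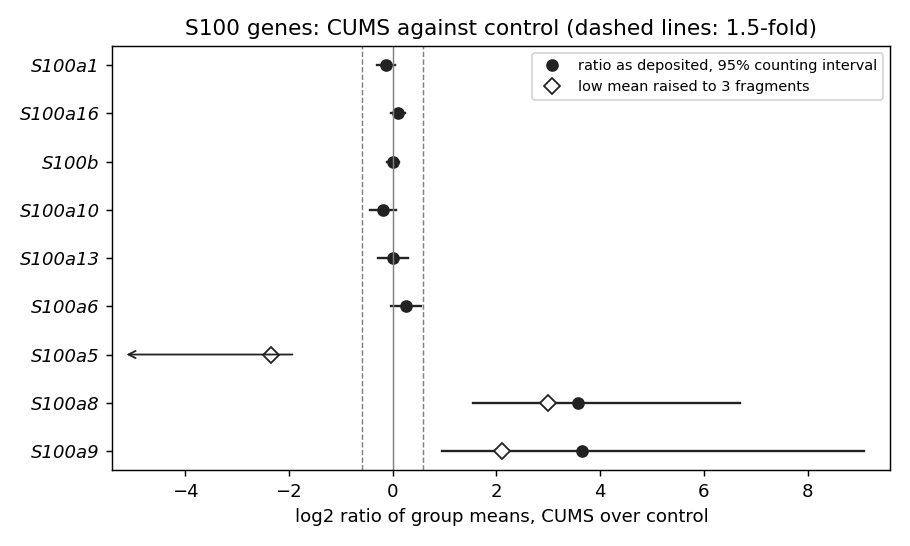
Log2 ratio of the group means, CUMS over control, for the 9 S100 genes, with dots for the deposited ratio, lines for the 95% counting interval, diamonds for the ratio with low means raised to 3 fragments, and dashed lines at 1.5-fold. The intervals of 6 genes cross 0, those of S100a8 and S100a9 start at 1.56 and 0.95, and that of S100a5 ends at -1.86 and is open downward (arrow).

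**Figure D4:**
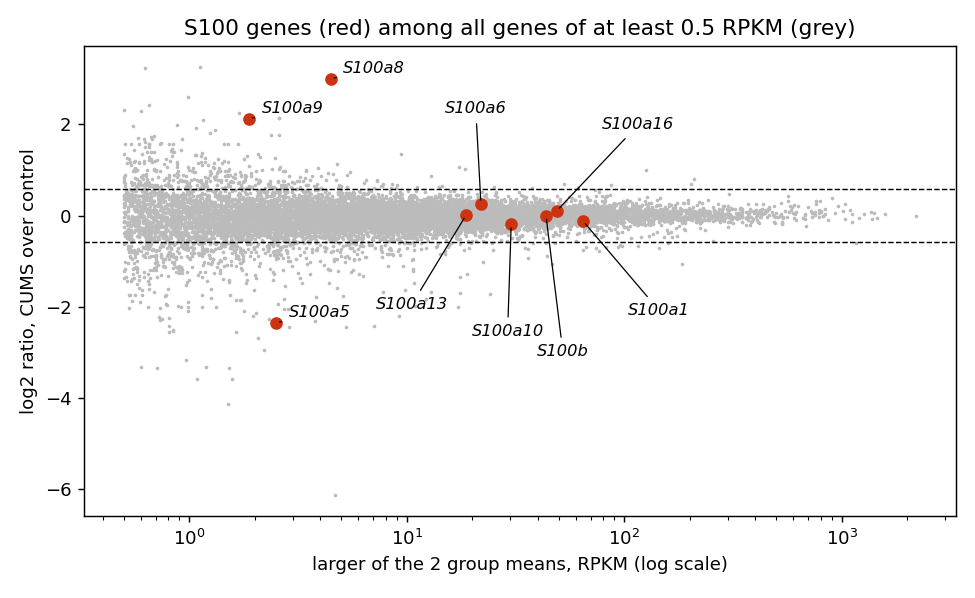
Log2 ratio of CUMS over control (vertical axis, low means raised to 3 fragments) against the larger group mean in RPKM (horizontal log axis) for 14243 genes of at least 0.5 RPKM (grey) and the 9 S100 genes (red), with dashed lines at 1.5-fold. S100a8 (3.0), S100a9 (2.12) and S100a5 (-2.35) lie in the range under 5 RPKM where the grey points spread widely, and the other 6 lie within the band.

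The family on chromosome 3 forms a gene cluster that also holds genes of the skin barrier. From S100a1 to S100a10 it spans 3.05 Mb (90511034 to 93564645), with 19 genes in the table, of which 12 were S100 genes. Of the 7 others 2 could be compared and 0 were past 1.5-fold. Of 7 more S100 genes looked for, 4 were in the table and 0 differed by more than 1.5-fold at 0.5 RPKM or above. S100a11, a partner of annexin A1, was 8.88 RPKM in control against 6.96 RPKM in CUMS, with a log2 interval of -0.90 to 0.21. S100a3 (0.375 and 0.465 RPKM) and S100a7a (0.095 and 0.445 RPKM) stayed under 0.5 RPKM. Tchh, the 1 gene in the table among 7 S100-fused proteins of skin and hair, was 1.06 and 0.8 RPKM. S100a7a, the S100 gene before S100a8, had 1 fragment in control and 5 in CUMS, a log2 interval of -0.85 to 7.87 that includes 0.

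Few known partners of the family differed by more than 1.5-fold, although the counting interval excluded 0 for 4 of 9 annexin-related genes, 1 of 4 receptors, 4 of 10 S100a10 partners and 7 of 12 intracellular targets, beside 30.8% of all genes compared. Annexins and Ahnak, which S100 dimers tie to membranes, were higher in 6 of 9 genes and lower in 3, with a median log2 ratio of 0.10. Anxa4, with 40 fragments in control and 64 in CUMS, was the 1 gene past 1.5-fold (log2 interval 0.07 to 1.27). Over all genes compared, 2.71% were more than 1.5-fold higher. The abundant Anxa6 (42.4 and 41.5 RPKM), Anxa7 (30.7 and 32.9 RPKM) and Anxa5 (25.2 and 23.7 RPKM) had log2 ratios of -0.03, 0.10 and -0.09, whereas Anxa3 and Anxa11, added after their values were seen, had 0.42 (0.04 to 0.80) and 0.20 (0.02 to 0.37). Receptors for secreted S100 proteins gave 2 higher and 2 lower of 4 compared, none past 1.5-fold, with a median of 0.00. Among these, Bsg, which binds S100a9, was 314 and 298 RPKM, Alcam was 21.5 and 22.8 RPKM, and the adaptor gene Myd88 was 3.31 and 2.9 RPKM. The gene of RAGE itself, Ager, was 0.46 and 0.545 RPKM, and Tlr4, the other receptor of calprotectin, was 0.19 and 0.1 RPKM, and both were added after their values were seen.

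Intracellular targets were higher in 5 and lower in 7 of 12 compared genes, none past 1.5-fold, with a median of -0.03. Syt1, the synaptic vesicle calcium sensor that is exported together with S100a13, was 249 and 288 RPKM. Atp2a2, the calcium pump bound by S100a1, was 166 and 159 RPKM, and Capza2, an actin-capping subunit that carries the S100b-binding motif, was 62.5 and 75.0 RPKM. Other EF-hand calcium buffers and sensors were higher in 15 of 19 compared genes and lower in 4, with a median of 0.19. Over all 14243 genes compared, 6629 were higher and 7585 lower. The counting interval excluded 0 for 15 of the 19 buffer genes, beside 30.8% of all genes compared. These intervals cover counting error only and are narrow where fragments are many. Among the most abundant buffer and sensor genes were the calmodulin genes Calm2 (871 and 1033 RPKM) and Calm3 (758 and 807 RPKM). The 1 buffer gene past 1.5-fold was Calb2, whose log2 ratio was -0.92 (-1.09 to -0.75) and which also stands in the olfactory bulb list.

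**Figure D5:**
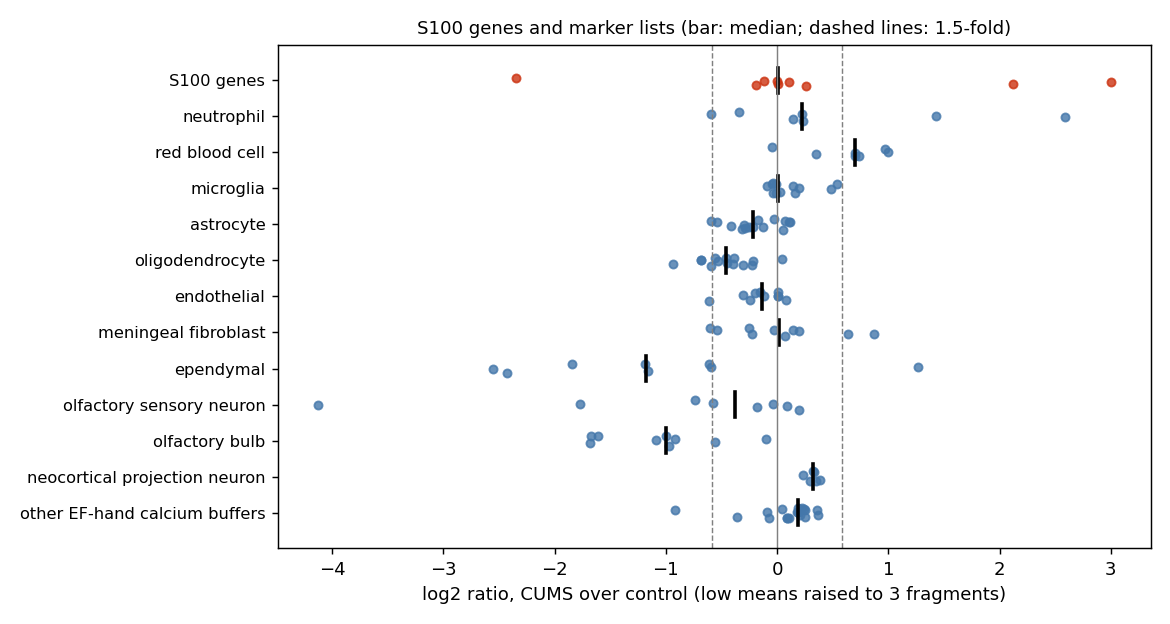
Log2 ratio of CUMS over control (horizontal axis, low means raised to 3 fragments) for each compared gene of the S100 family (red) and of marker and calcium-buffer lists (blue), with black bars for the medians and dashed lines at 1.5-fold. The S100 median is 0.01 with S100a5 at -2.35 and S100a8 at 3.0 as the extremes, while the medians of the olfactory bulb and oligodendrocyte lists are -1.0 and -0.45 and that of the red blood cell list is 0.70.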

How the data were processed

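Per the labels and the study's methods, mRNA of 2 control and 2 CUMS mPFC libraries was sequenced as paired reads, aligned by the authors to mm10 with TopHat 1.0.12 and Bowtie 0.11.3 (at most 3 mismatches), and counted where uniquely aligned to genes. The authors deposited RPKM values averaged over the 2 libraries of a group, with 0.01 in place of 0. The annotation and strand setting are not given in the sources used here. The deposited table also holds the authors' log2 ratio, direction and probability per gene, which were not used. The limma fit foreseen for values per library could not be made on group means.

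Fragments were estimated (Python 3.11.15, numpy 2.4.6, pandas 2.3.3, scipy 1.17.1) as the step by which 1 fragment raises the product of mean and gene length, for genes under 1500 bases with products under 450. With lengths shortened by 65 bases, 94.3% of 855 control values and 93.9% of 867 CUMS values lay within 0.15 of a whole fragment. The estimator was tested on simulated libraries of equal depth, with a depth and shortening close to those found here. That test cannot address unequal depth or the gap to the study's read totals. The estimated fragments gave exact Poisson intervals for levels, Clopper-Pearson intervals for ratios, and a floor of 3 fragments over the group. Ratios use the deposited means. Equal depth of the libraries of a group was assumed.

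Genes named were all members, partners and targets past 1.5-fold or highest in control, and for marker lists up to 3 genes with the highest mean. Others are said to be chosen after their values were seen. Some genes that this rule selects are not reported here. The members and lists were chosen with earlier results of these data known. Gene positions and promoters came from RefSeq GRCm38.p6, matched by gene ID for 17731 of 17778 genes.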

Additional observations from a re-analysis of the deposited data

How the results depend on the processing

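The log2 ratios of the 6 abundant members stayed inside their counting intervals under all 42 alternatives run on them (pseudocounts, rescalings, floors and the fragment estimate with deposited lengths, the last chosen after seeing the data). Most of these settings could hardly move them. Each of the 6 had at least 197 fragments in both groups, so floors and the fragment estimate left the ratios unchanged. The rescalings shifted log2 ratios by only 0.015 and -0.0076. With a floor of 10 fragments the log2 ratios were -0.61 for S100a5, 1.26 for S100a8 and 0.38 for S100a9, and with a pseudocount of 1 RPKM S100a5 was -1.23, because both raise the low mean. The count of 3 members past 1.5-fold stayed at 3 under the other settings, was 2 with a floor of 10 fragments and 0 among genes of at least 5 RPKM, where the 3 genes were no longer included.

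Counts of list genes past 1.5-fold in either direction moved as follows. Among genes of at least 5 RPKM they went to 0 for annexins (from 1), S100a10 partners (from 1), ependymal (from 8), meningeal fibroblast (from 3) and olfactory sensory neuron genes (from 3), to 1 for neutrophil (from 3), 3 for red blood cell (from 5) and 4 for olfactory bulb genes (from 7). With a pseudocount of 1 RPKM they went to 0 for annexins, S100a10 partners and astrocyte genes (from 1), to 1 for neutrophil, meningeal fibroblast and olfactory sensory neuron genes, and to 4 for ependymal genes. Without a filter they went to 1 for the other S100 genes and for the receptors (from 0 each), 7 for neutrophil and 5 for olfactory sensory neuron genes. When CUMS was rescaled so that the median log2 ratio was 0 (which adds 0.015 to each ratio), the astrocyte count went to 0. The cause was not tested beyond what these settings change by construction. The other 52 counts of list genes under these settings were within 1.5 times of the first count.

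No paired analysis was possible because each gene came with 1 mean per group, and for the same reason no library was left out in turn. The depth limits S100a5, S100a8 and S100a9, whose lower means rest on 0, 2 and 1 fragments.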

Other observations

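Cell types not described with a member differed as well. Of 8 compared ependymal genes, which build motile cilia on ventricle walls, 7 were lower in CUMS, all 7 by more than 1.5-fold, and 1 was more than 1.5-fold higher, with a median log2 ratio of -1.17. Of the 7 lower genes 4 reached 0.5 RPKM only in control, and the 1 higher gene did so only in CUMS, so that these had to differ to be compared, in a range of levels where 17.6% of all genes differed by more than 1.5-fold. Foxj1, the master regulator of motile cilia, was 4.35 RPKM in control against 1.95 RPKM in CUMS, Rsph1 was 3.37 and 2.23 RPKM, and Ccdc153 was 1.72 and 0.48 RPKM. Of 10 endothelial genes 4 were higher and 6 lower, with a median of -0.13. More than 1.5-fold lower was 1 of the 10, beside 4.35% of all genes compared. The tight junction gene Cldn5 was 38.1 and 24.96 RPKM, Ly6c1 was 41.6 and 37.5 RPKM, and the transporter gene Slco1a4 was 10.5 and 11.03 RPKM.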
